A study of Equus caballus with 15 samples.

Results

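RNA was compared between sections holding the myotendinous junction (MTJ) and sections of the adjacent tendon in the superficial digital flexor of 5 horses, with each horse giving 1 section sample of each kind. The members were all libraries labelled MTJ or tendon, 10 of the 15 in the series, joined in pairs by horse number, and every gene of the count table that passed a filter on low counts was tested. The other 5 libraries are muscle of the same horses. The horses, numbered 14, 16, 17, 18 and 20, were 7, 5, 5, 7 and 6 years old, and were 4 mares and 1 gelding, horse 20. No agent or genetic change is named in the labels. All were euthanized before sampling, and a punch 4 mm wide was taken from forelimb muscle together with the tendon attached to it, so both sections of a pair come from 1 animal. About 200 micrometres of cryosections went into each sample, and an MTJ sample therefore holds the muscle and tendon that flank the junction. The MTJ and tendon labels call horse 17 sedentary and the other 4 trained, but the muscle library of horse 14 is labelled sedentary, so the training label of that horse is in doubt and training was not compared.

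At the myotendinous junction the ends of muscle fibres fold into finger-like processes that meet tendon collagen through a basement membrane. Force crosses the fibre membrane there through integrins and through the dystrophin-glycoprotein complex, which ties actin inside the fibre to laminin outside it. Tendon itself is mostly type I collagen laid down by sparse fibroblasts called tenocytes, and small proteoglycans, elastic microfibrils and cross-linking enzymes shape its fibrils. The superficial digital flexor tendon of the horse stores elastic energy in locomotion and is a frequent site of strain injury.

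The MTJ libraries held 17160894 to 18659381 counts and the tendon libraries 15304218 to 17048957. Levels are CPM, counts relative to library totals after scaling by edgeR's trimmed mean of M values (TMM), listed for horses 14, 16, 17, 18 and 20 in that order, and means carry the SD over 5 libraries. The 10 most abundant genes took 26.1% ± 1.13 of counts in MTJ and 14.8% ± 1.56 in tendon libraries. The summed level of 10 skeletal muscle fibre markers was 357858, 331671, 305193, 249201 and 277937 CPM in MTJ sections. In tendon sections it was 63073, 73545, 50710.4, 599 and 10571 CPM. The tendon sections of horses 14, 16 and 17 thus carried far more muscle RNA than those of horses 18 and 20, with 8.26, 9.27, 7.45, 0.0921 and 1.53% of their counts in these 10 genes, and the groups did not overlap. The sum of the 10 tendon markers ran the other way, at 1297, 649, 2998, 1620.4 and 1591 CPM in MTJ sections and 12822, 14916, 11112, 14254 and 20278 CPM in tendon. Every tendon section lay above every MTJ section, and horse 17 had the highest tendon marker level among MTJ sections. Both groups thus held RNA of markers of both tissues, and in bulk sections fewer cells of a type and less RNA per cell cannot be told apart.

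**Figure D1:**
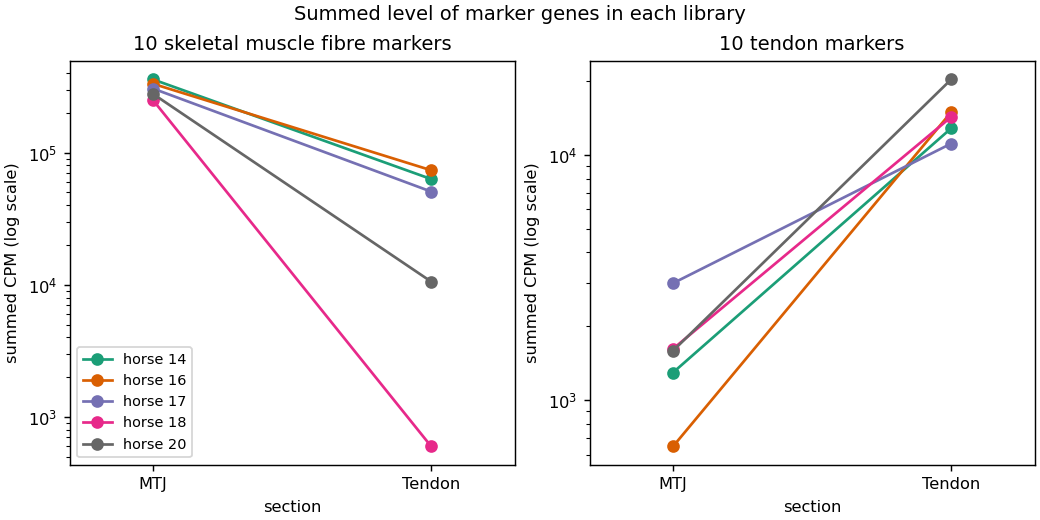
Summed CPM, on a log axis, of 10 skeletal muscle fibre markers (left) and 10 tendon markers (right) in each library, with a line joining the MTJ and tendon sections of a horse. Tendon sections of horses 14, 16 and 17 carry 63073, 73545 and 50710 CPM of muscle markers, and those of horses 18 and 20 carry 599 and 10571.

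The labels were checked against these markers. In the fit, 9 of 10 muscle fibre markers were higher in MTJ and 6 of 9 tested tendon markers were lower. Leaving out 1 horse moved the muscle marker count, to 4 without horse 20 and 6 without horse 14, while the median log2 fold change went from 3.84 to 3.43 and 4.32. COMP, a pentameric matrix protein abundant in load-bearing tendon, read 448, 114, 1451, 469 and 540.1 CPM in MTJ and 9440.2, 10806, 7315, 9732 and 13973 CPM in tendon. The groups did not overlap, and MTJ horse 17 stood nearest to tendon. MKX, the tendon transcription factor Mohawk, was also lower in MTJ (log2 fold change -3.47 ± 0.34 SE, adjusted p = 0.000138), as were the matrix protein genes THBS4 at -2.55, FMOD at -2.53, CHAD at -2.17 and TNC at -2.07. SCX, the tendon lineage factor scleraxis, did not pass the filter. TNMD, a tenocyte membrane protein, read 1.20, 2.22, 2.66, 4.97 and 9.32 CPM in MTJ and 1.62, 3.85, 0.445, 0.343 and 3.25 CPM in tendon and was not called (log2 fold change 1.26 ± 0.69, adjusted p = 0.144). It was called higher with DESeq2 (adjusted p = 0.0301), without horse 16 (1.86, adjusted p = 0.0479) and without horses 14, 16 and 17 (2.57, adjusted p = 0.0412). KERA, encoding keratocan, was not called either (0.44 ± 0.18, adjusted p = 0.0595), but it was called higher in 7 alternative settings, at 0.99 without horses 14, 16 and 17 (adjusted p = 0.0175), and lower with library totals (-0.53, adjusted p = 0.0241). TPPP3, which marks cells of the tendon sheath in mouse, was higher in MTJ, at 228, 225, 198, 80.2 and 205 CPM against 45.4, 127, 48.0, 23.2 and 26.4 CPM in tendon. Its log2 fold change was 1.99 ± 0.29 (adjusted p = 0.000698), all 5 horses were higher in MTJ, and the groups overlapped. With all 15 libraries scaled together, TPPP3 averaged 151 ± 37.6 CPM in muscle, 160 ± 51.9 CPM in MTJ and 45.7 ± 36.9 CPM in tendon sections. Part of the tendon marker list thus did not follow the tendon label.

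Across the transcriptome the sections differed in most genes. Of 15072 genes tested, 4605 were higher in MTJ (30.6%) and 5216 were lower (34.6%) at an adjusted p under 0.05 in edgeR's quasi-likelihood test, fitted with a term for horse. Together these are 65.2% of the genes tested, and the counts of every list below stand beside these shares. A test against a 2-fold change called 1829 genes higher (12.1%) and 1573 lower (10.4%). In 6944 genes (46.1%) the 5 MTJ values did not overlap the 5 tendon values, and in 4038 called genes the log2 fold change was under 1 in size. The median log2 fold change of all genes was -0.14. Scaling moved this balance: with library totals alone 1756 genes were higher and 10555 lower, so the higher share of calls went from 46.9% to 14.3%, and the median went to -1.12. That shift of -0.98 applies to every list below, so differences in favour of MTJ of less than about that size changed side with it. Without horses 14, 16 and 17, whose tendon sections held the most muscle RNA, 3604 genes were higher and 2757 lower in the remaining 4 libraries. These are 23.1% and 17.7% of the genes tested in that fit.

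**Figure D2:**
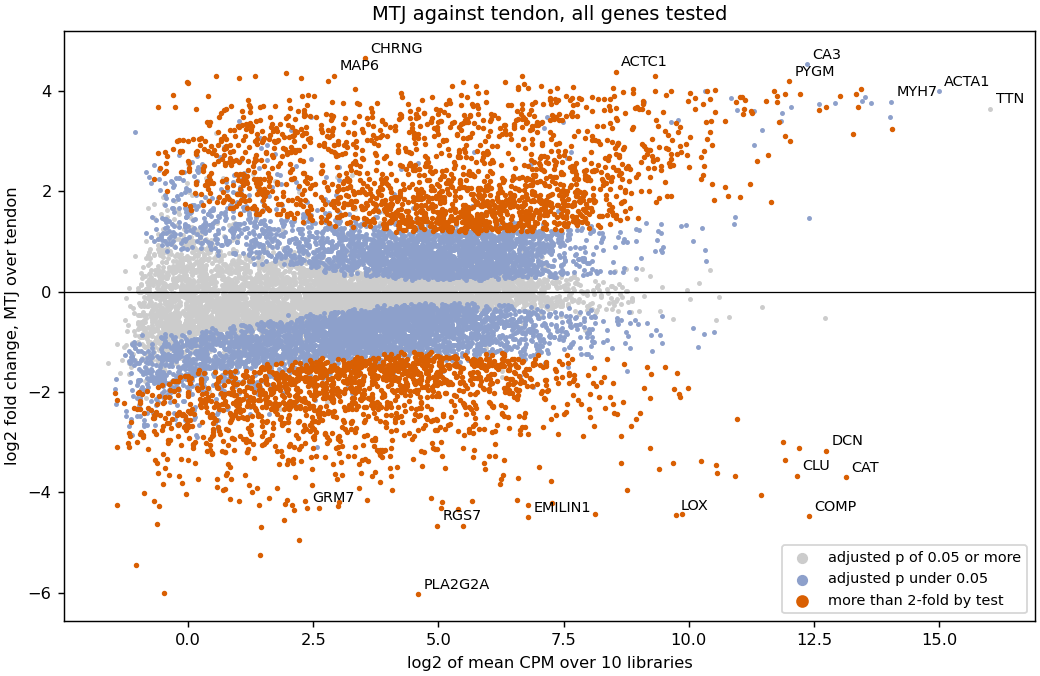
Log2 fold change of MTJ over tendon against log2 mean CPM over the 10 libraries for 15072 genes, with genes called at an adjusted p under 0.05 in blue and those called as more than 2-fold different in orange. ACTA1 and MYH7 sit at the upper right and COMP, CAT, DCN and CLU at the lower right, while TTN, the most abundant gene in MTJ, is grey.

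PLA2G2A, a secreted phospholipase of the acute phase, showed the largest decrease in MTJ among the genes chosen for size, with 0.171, 0.426, 0.456, 1.21 and 0.797 CPM in MTJ and 8.36, 16.6, 8.27, 121 and 82.9 CPM in tendon. The 2 sets of values lay wide apart in every horse (log2 fold change -6.02 ± 0.34, adjusted p = 7.62e-05). RGS7, a regulator of G-protein signalling, followed at -4.66 ± 0.33 with a mean of 2.51 ± 2.01 CPM in MTJ and 60.6 ± 38.3 CPM in tendon. EMILIN1, an elastic microfibril glycoprotein, read 5.57, 8.53, 30.9, 7.59 and 6.30 CPM in MTJ and 246, 228, 169, 197 and 206 CPM in tendon. LOX, the lysyl oxidase that starts collagen and elastin cross-linking, read 53.2, 15.6, 317, 75.7 and 87.3 CPM in MTJ and 1147, 905, 1769.9, 1986 and 2172 CPM in tendon. In both genes MTJ horse 17 was the highest of its group and still below every tendon section. EMILIN1 differed by -4.50 ± 0.46 and LOX by -4.45 ± 0.51 on the log2 scale. ANGPTL7, a secreted angiopoietin-like protein, fell by a similar size at -4.43, as did TSKU at -4.43, ACAN at -4.32, SOD3 at -4.31 and ISM1 at -4.26. ACAN encodes aggrecan, SOD3 the extracellular superoxide dismutase, and TSKU and ISM1 encode secreted regulators.

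CAT, encoding the peroxide-degrading enzyme catalase, had the highest mean level in tendon, with 14005, 11763, 6465, 22828 and 28236 CPM there and 1029, 438, 1738, 1643 and 1622 CPM in MTJ. MTJ horse 17 was the nearest to tendon, and the groups did not overlap (log2 fold change -3.70 ± 0.61, adjusted p = 0.00131). DCN, encoding the fibril-binding proteoglycan decorin, read 1043, 681, 2384, 1508 and 1509 CPM in MTJ and 8448, 12120.0, 8041, 16022 and 16586 CPM in tendon, and differed by -3.17 ± 0.51. CLU, encoding the extracellular chaperone clusterin, differed by -3.66 ± 0.44 with means of 747 ± 445 CPM in MTJ and 8364 ± 1919 CPM in tendon. TTN, a muscle fibre gene, came just under CAT, with tendon means of 16050 ± 13055 CPM for TTN and 16659 ± 8761 CPM for CAT. TTN read 24018, 30814, 20528, 208 and 4681 CPM in tendon. TTN is itself one of the fibre markers by which muscle RNA was judged. It was above CAT in the tendon sections that held the most muscle RNA and below CAT in the others, which that overlap makes likely beforehand. CAT and CLU thus stood beside TTN and the structural proteins among the most abundant transcripts of tendon sections. PRELP, a small proteoglycan (-3.61), TIMP2, a metalloproteinase inhibitor (-3.37), FN1, fibronectin (-3.35), and MGP, an inhibitor of calcification (-3.00), were lower too, each with every horse in that direction.

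**Figure D3:**
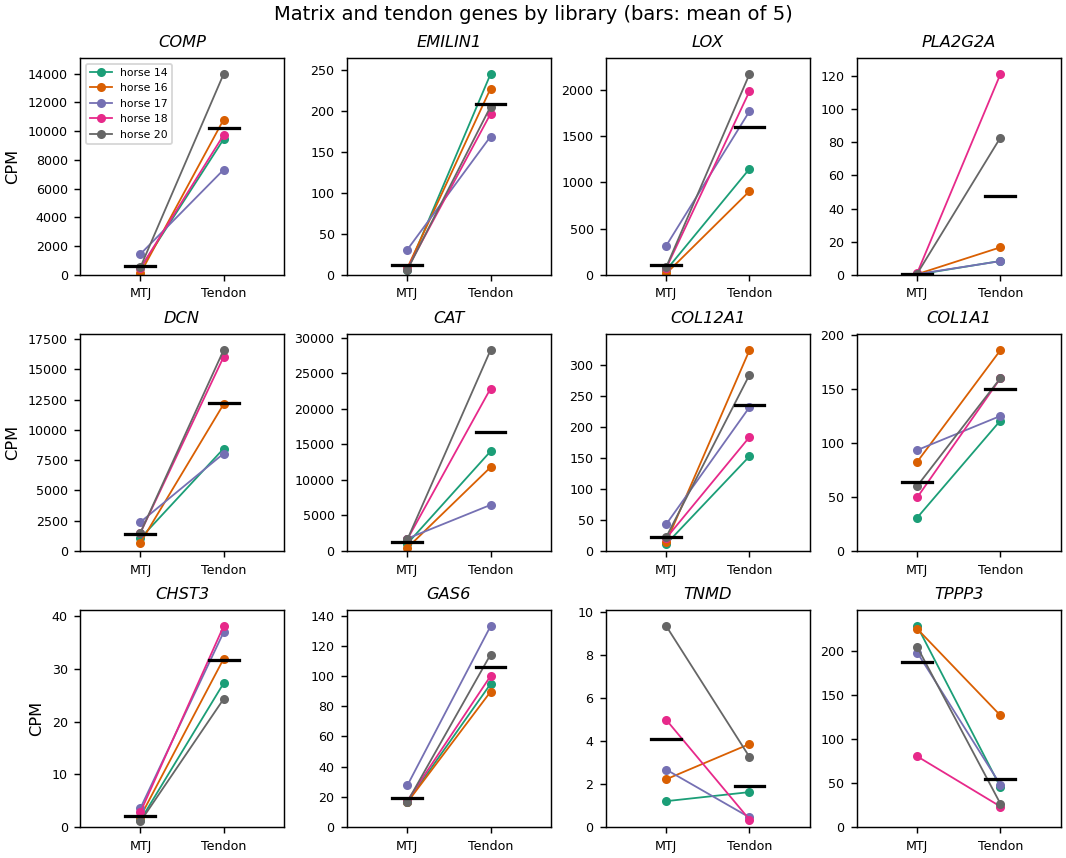
CPM of 12 matrix and tendon genes in each library, with a line joining the sections of a horse and black bars at the means of 5. COMP, EMILIN1, LOX and CAT are higher in all 5 tendon sections, while TNMD overlaps and TPPP3 is higher in the MTJ section of every horse.

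Collagens and proteoglycans were mostly lower in MTJ. Of 17 fibrillar and associated collagens tested, 13 were lower and 1 higher in MTJ, and their median log2 fold change was -1.04 against -0.14 over all genes. Without horses 14, 16 and 17 the count of lower collagens was 9, with a median of -0.64. COL12A1, a fibril-associated collagen, read 11.2, 14.5, 43.3, 20.8 and 22.6 CPM in MTJ and 152, 323, 232, 183 and 284 CPM in tendon (-3.49 ± 0.30). The groups were apart in each horse. COL16A1 (-3.30) and COL5A1 (-2.26), which governs fibril diameter, were lower as well. COL1A1, an alpha chain of type I collagen and the main protein of tendon, read 30.8, 82.5, 93.3, 49.6 and 60.2 CPM in MTJ and 121, 186, 125, 159.6 and 159.8 CPM in tendon. MTJ sections were lower in every horse without overlap, but the difference was -1.33 ± 0.22, and COL1A2 differed by -1.0 ± 0.18. The collagen higher in MTJ was COL8A1 at 0.56, which turned to -0.42 with library totals and lost its call once horse 20 was left out (adjusted p = 0.0577). Across 14 small leucine-rich proteoglycans, which coat and space collagen fibrils, 13 were lower and 0 higher, with a median of -2.05. BGN (-2.49), LUM (-1.93) and OGN (-0.91) were among them.

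Cartilage-type matrix genes showed the lowest median of the lists described. Of 17 tested, 14 were lower in MTJ and 0 higher, with a median of -3.00. This list shares COMP with the tendon markers. CILP2, a cartilage intermediate layer protein, read 6.85, 2.73, 47.8, 8.53 and 9.32 CPM in MTJ and 154, 317, 256, 87.7 and 223 CPM in tendon. The MTJ section of horse 17 was many times above the other MTJ sections and below the lowest tendon section. CILP differed by -3.42 ± 0.40. The chondrogenic factors SOX5 (-2.08 ± 0.13) and SOX9 (-1.14 ± 0.30) were also lower, and PRG4, which encodes the lubricant lubricin, was not called (-0.49 ± 0.23, adjusted p = 0.0977). With library totals PRG4 was called lower (-1.47, adjusted p = 0.000522). Tendon under compression is known to express cartilage-type matrix.

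Enzymes that process and export matrix were mostly lower too. Among 22 collagen cross-linking and processing genes, 18 were lower and 2 higher (median -1.54). LOXL4 (-3.35), CRTAP (-2.42), a partner in prolyl 3-hydroxylation, and PCOLCE2 (-2.41), an enhancer of procollagen cleavage, were lower. The 2 higher genes were LOXL2 at 0.68 and P4HA2 at 0.82, a prolyl hydroxylase subunit, and with library totals they were -0.30 and -0.16. Of 25 glycosaminoglycan synthesis genes, 20 were lower and 1 higher (median -1.47). The higher one was HS6ST1, a heparan sulfotransferase, at 0.88 ± 0.14, and -0.10 with library totals. CHST3, a chondroitin sulfotransferase, read 1.28, 1.96, 3.57, 2.82 and 1.04 CPM in MTJ and 27.2, 31.9, 36.9, 38.1 and 24.3 CPM in tendon. All MTJ sections lay under all tendon sections by a wide margin (-3.95 ± 0.19, adjusted p = 7.62e-05). CHST15 (-2.32) and XYLT1 (-2.22), which starts the sugar chains, were lower too. Of 23 secretory pathway genes, 16 were lower and 2 higher (median -0.90). Those lower included KDELR3 (-3.18), which retrieves proteins to the endoplasmic reticulum, CREB3L2 (-1.87), a driver of secretory genes, XBP1 (-1.79) and SEC24D (-1.77), a coat protein for procollagen export. The 2 higher were SEC23A (0.60), its coat partner, and SPCS1 (0.46), a signal peptidase subunit, which with library totals were -0.38 and -0.52.

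Of 17 elastic fibre and microfibril genes, 12 were lower and 1 higher in MTJ (median -1.14). MFAP4 (-3.52), FBLN1 (-2.87) and LTBP2 (-2.83) were lower. ELN, elastin itself, was not called (-0.49 ± 0.20, adjusted p = 0.0564). It was called lower in 5 alternative settings, among them without horse 18 (-0.66, adjusted p = 0.0144) and with library totals (-1.47). FBN1 was not called (-0.18 ± 0.13, adjusted p = 0.254), but it was called lower with library totals (-1.16, adjusted p = 8.18e-05). FBN2, the fibrillin of developing tissue, was the one higher, at 8.73, 8.10, 4.56, 4.36 and 6.06 CPM in MTJ and 1.89, 2.26, 0.667, 0.0381 and 0.700 CPM in tendon. The groups did not overlap (2.86 ± 0.51, adjusted p = 0.00199). With all 15 libraries scaled together, FBN2 averaged 7.97 ± 1.37 CPM in the muscle sections of these horses and 5.43 ± 1.70 CPM in MTJ. Of 19 matrix proteases and inhibitors, 10 were lower and 1 higher (median -0.73), beside 34.6% lower and 30.6% higher over all genes. Without horses 14, 16 and 17 the count of lower genes was 5, with a median of -0.87. The higher gene was MMP15 (2.86 ± 0.49), a membrane-bound metalloproteinase. Its level was low, at 2.47 ± 1.10 CPM in MTJ and 0.417 ± 0.401 CPM in tendon with all 15 libraries scaled together. The inhibitor TIMP3 (-2.24) and the aggrecan-cleaving ADAMTS5 (-2.85) were lower, while the gelatinase MMP2 was not called (0.02 ± 0.22, interval -0.48 to 0.52).

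Several of the genes lower in MTJ with the smallest p lie outside the matrix. GAS6, a ligand of the TAM receptor kinases, read 16.7, 16.4, 27.6, 17.5 and 16.7 CPM in MTJ and 94.8, 89.7, 133, 100.1 and 114 CPM in tendon. Its ratio was close to constant over the horses (-2.50 ± 0.11, adjusted p = 7.62e-05). The mitochondrial acyl-CoA synthetase gene ACSM3 differed by -2.41 ± 0.10, the actin-branching subunit gene ARPC1B by -1.85 ± 0.08, and KLF4, a zinc-finger transcription factor, by -2.49 ± 0.12. FXYD5, PPL and NINJ1, which code for an ion pump regulator, a desmosomal plaque protein and an adhesion protein, differed by -2.48, -2.63 and -1.94.

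**Figure D4:**
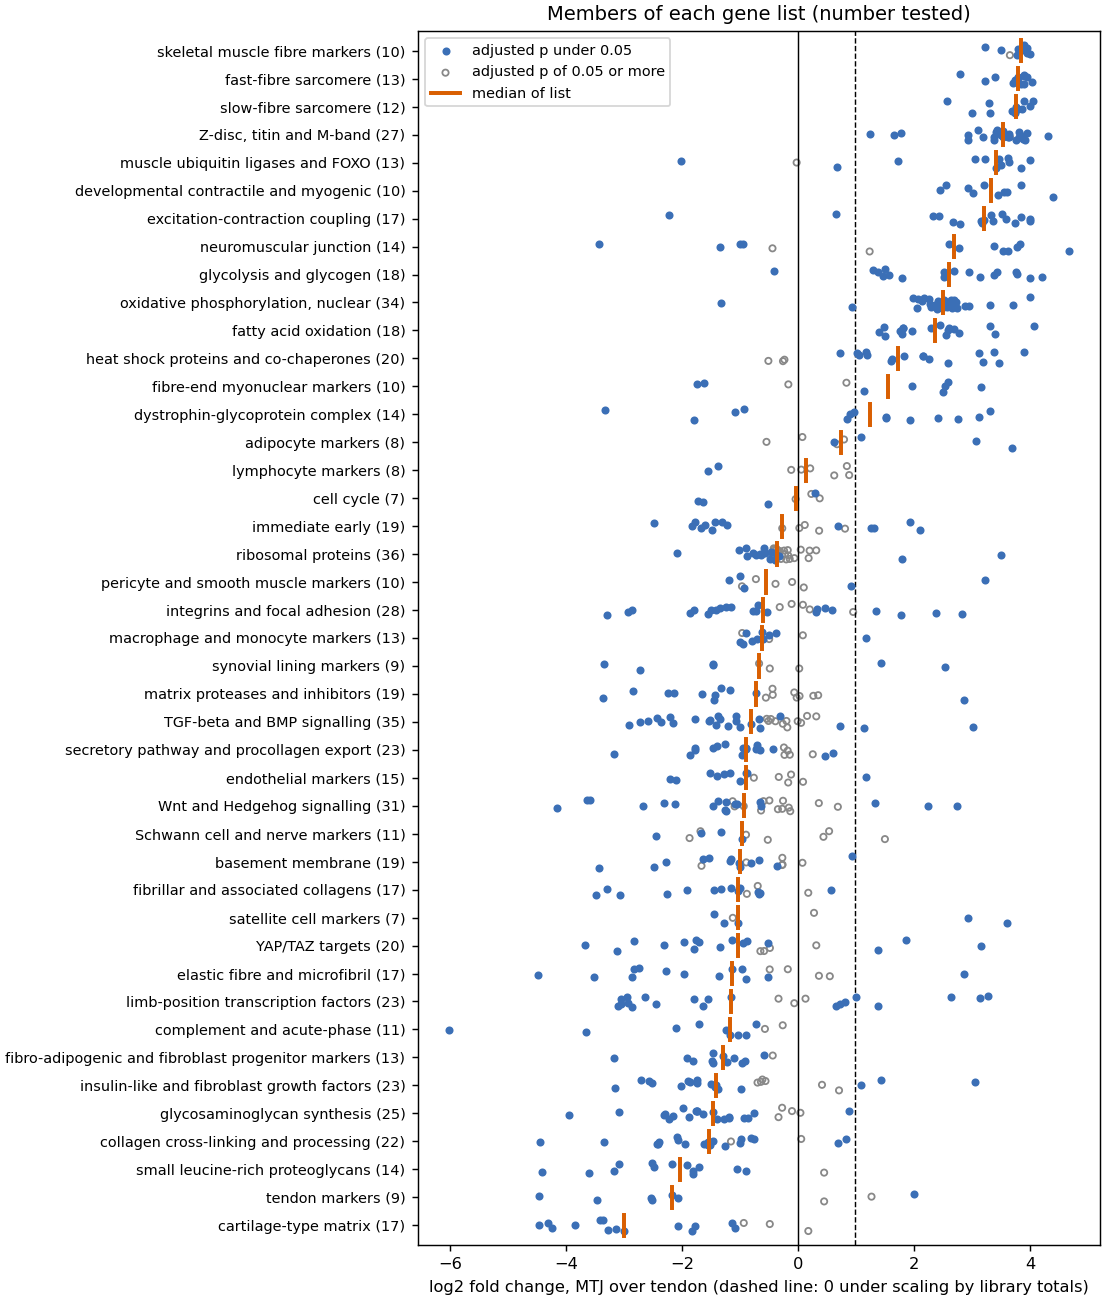
Log2 fold change of MTJ over tendon for the tested members of each gene list, filled where the adjusted p was under 0.05, with the list median as an orange bar. The dashed line marks where 0 falls with scaling by library totals. Muscle lists sit at the top with medians up to 3.84 and cartilage-type matrix at the bottom at -3.00.

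Genes of the contractile apparatus were higher in MTJ. All 13 fast-fibre sarcomere genes and all 12 slow-fibre genes tested were higher, with medians of 3.80 and 3.75, as were 26 of 27 Z-disc, titin and M-band genes (median 3.54). Without horse 20 the slow-fibre count fell to 4 of 12, with a median of 3.30, and the fast-fibre count was 12. ACTA1, the skeletal actin, read 64493, 67271, 54035, 49438 and 56157 CPM in MTJ and 10912, 13375, 9245, 140.0 and 1073 CPM in tendon. The groups did not overlap, and the tendon levels of horses 18 and 20 were far under those of the other 3. Its log2 fold change was 4.00 ± 1.30 (adjusted p = 0.0282), and the call was lost without horse 14 (adjusted p = 0.0577) or horse 20 (0.0888). MYH7, the slow myosin heavy chain (3.79 ± 1.21), and MYH2, a fast one (3.90 ± 1.00), were higher. TTN, the giant spring protein titin and the most abundant MTJ transcript, read 140846, 125874, 123102, 92168 and 104216 CPM in MTJ and 24018, 30814, 20528, 208 and 4681 CPM in tendon. Every MTJ section was above every tendon section, but TTN was not called (3.65 ± 1.44, adjusted p = 0.0554). It was called in 6 alternative settings, among them DESeq2 (adjusted p = 4.11e-06). Calls of MYH7 and of NEB (3.49), the thin-filament ruler nebulin, were lost without horse 14, 17 or 20, with adjusted p up to 0.0839 and 0.0867.

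The differences were widest in horses 18 and 20, whose tendon sections held the least muscle RNA. As a percentage of the MTJ level of the same horse, the median fibre marker in tendon was 17.6, 19.1, 16.4, 0.285 and 3.81. Without horses 14, 16 and 17 the median log2 fold change was 6.39 for fast-fibre and 7.07 for slow-fibre genes. Those horses were picked by the muscle fibre markers in their tendon sections. A wider difference in muscle genes without them therefore follows from that choice and is not a separate result. The fitted values over 5 horses are thus averages over unlike tendon sections.

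By size of change, CHRNG, the embryonic acetylcholine receptor subunit, came first. It read 5.39, 40.8, 56.1, 9.27 and 1.04 CPM in MTJ and 1.03, 1.25, 0, 0.191 and 0.412 CPM in tendon. The MTJ values spread widely and the groups overlapped, though each horse was higher in MTJ (4.66 ± 1.00, adjusted p = 0.00464). CA3, the carbonic anhydrase of slow fibres, differed by 4.53 ± 1.29, and ACTC1, the actin of heart and developing muscle, by 4.38 ± 1.01. ACTC1 is close in sequence to ACTA1, and reads could be split between such copies. MAP6, which stabilises microtubules, MYOM2, an M-band protein, and METTL21C, a muscle lysine methyltransferase, differed by 4.31, 4.31 and 4.29. PYGM, the muscle glycogen phosphorylase, had means of 7449 ± 1078 CPM in MTJ and 743 ± 615 CPM in tendon (4.20 ± 1.04). TECRL (4.19), AGBL1 (4.19), GADL1 (4.14), BBOX1 (4.11) and ALPK2 (4.10) completed the 12, and BBOX1 makes carnitine. Genes of immature fibres were higher as well: of 14 developmental contractile and myogenic genes listed, 10 were tested and 10 were called. MYH3 differed by 2.92 ± 0.22 and MYH8 by 3.44 ± 0.39. With all 15 libraries scaled together, MYH3 averaged 41.2 ± 6.90 CPM in muscle and 71.0 ± 58.7 CPM in MTJ sections. For MYH8 these means were 92.1 ± 40.5 and 100 ± 57.8 CPM.

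Genes of energy metabolism were mostly higher in MTJ. Of 34 nuclear oxidative phosphorylation genes, 33 were higher and 1 lower (median 2.50), the latter COX6A1 (-1.34 ± 0.14). Of 18 glycolysis and glycogen genes, 17 were higher and 1 lower (median 2.60), the latter HK2, a hexokinase, at -0.42 ± 0.13, a call lost without horse 16, 17, 18 or 20 (adjusted p up to 0.0861). The HK2 call was also lost with DESeq2 (adjusted p = 0.0711), with DESeq2's size factors in edgeR (0.056) and with no block (0.265). All 18 fatty acid oxidation genes were higher (median 2.36). CPT1B, which admits fatty acids to muscle mitochondria, differed by 4.07 ± 0.81, and PGAM2, the muscle phosphoglycerate mutase, by 3.99 ± 0.96. ATP5ME, an ATP synthase subunit, was among the 8 genes named for the smallest p among those higher, and read 172, 109, 91.4, 111 and 177 CPM in MTJ and 35.2, 28.6, 22.5, 23.3 and 29.0 CPM in tendon. Here the tendon sections of horses 18 and 20 were not set apart from the other 3, and the difference was 2.22 ± 0.13 (adjusted p = 7.62e-05). MRPS33, a mitochondrial ribosomal protein (1.63 ± 0.09), TACO1, a translational activator of a cytochrome oxidase subunit (2.30 ± 0.12), NSUN4, a mitochondrial rRNA methyltransferase (1.68 ± 0.09), and MTERF2 (1.68 ± 0.10) were among the 8 too, as was KIF22, a kinesin of chromosome movement, at 2.50 ± 0.13.

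Calcium handling and protein turnover genes were mostly higher. Of 17 excitation-contraction coupling genes, 16 were higher and 1 lower (median 3.20). CASQ1, the calcium store protein of fast fibres, differed by 4.00 ± 1.01, and RYR1, the calcium release channel of skeletal muscle, by 3.36 ± 0.83. The lower gene was RYR3, another release channel, at 18.7, 21.8, 15.6, 13.0 and 11.2 CPM in MTJ and 61.8, 57.7, 75.7, 83.2 and 93.1 CPM in tendon (-2.23 ± 0.25). Of 13 ubiquitin ligase and FOXO genes, 11 were higher and 1 lower. TRIM63 (3.99) and FBXO32 (3.40), both muscle atrophy ligases, were higher, and FOXO1, the transcription factor known to drive them, was lower (-2.03 ± 0.18, adjusted p = 9.75e-05). Of 20 heat shock genes, 17 were higher and 0 lower (median 1.72), with 12 higher and 4 lower by library totals. UNC45B, the myosin chaperone, led them at 3.90 ± 0.93.

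Genes known from nuclei at the fibre end did not move together. Of 10 fibre-end markers, named from studies of mouse and human fibres, 6 were higher and 2 lower (median 1.54), and with library totals 3 were higher and 3 lower. COL22A1, the collagen of the junction itself, read 13.2, 28.9, 30.2, 19.3 and 31.0 CPM in MTJ and 6.52, 29.8, 3.69, 0.420 and 10.1 CPM in tendon. The tendon section of horse 16 matched its MTJ section, that of horse 18 was close to 0, and the groups overlapped. COL22A1 was higher in MTJ in 4 of 5 horses (1.95 ± 0.68, adjusted p = 0.0357). Its call was lost without horse 14, 17 or 20, with adjusted p of 0.0520, 0.113 and 0.0808, without the block (0.139) and with library totals (0.213). In the authors' deposited table, which sets each MTJ section against a value predicted from its muscle and tendon, COL22A1 has a log2 change of 4.10 with an FDR of 0.0460. The authors' deposited table gives NAV3 1.76 (FDR 0.0417) and SORBS2 2.39 (FDR 0.0639). For the other fibre-end markers it holds, the authors' deposited table gives ANKRD1 0.85 (FDR 0.0808), FRAS1 0.22 (FDR 0.0998), SLC24A2 0.12 (FDR 0.366) and MAML2 0.078 (FDR 0.395).

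Against tendon alone, NAV3, a microtubule-guiding protein, was not called (-0.17 ± 0.22, interval -0.68 to 0.34), but it was called lower with library totals (-1.15, adjusted p = 0.00182). SORBS2, a cytoskeletal adaptor, read 58.2, 97.6, 142, 189.7 and 171 CPM in MTJ and 55.4, 119, 72.5, 28.1 and 97.4 CPM in tendon and was not called (0.83 ± 0.41, adjusted p = 0.109). It was called higher in 5 alternative settings, among them DESeq2 (adjusted p = 0.0166), without horse 16 (1.16, adjusted p = 0.0485) and without horses 14, 16 and 17 (1.86, adjusted p = 0.0498). The tendon level was 95.2% and 122% of the MTJ level in horses 14 and 16, and in horse 18 it was 14.8%. COL24A1, a fibrillar collagen, and MAML2, a Notch coactivator, were lower in MTJ at -1.74 ± 0.32 and -1.63 ± 0.12. ANKRD1, a stretch-responsive titin partner (3.14 ± 0.79), SLC24A2, a calcium exchanger (2.58 ± 0.48), FRAS1, a basement membrane protein (2.53 ± 0.53), and ADAMTS20, a protease (2.49 ± 0.68), were higher. TIGD4 was called at 1.14 ± 0.43 in 4 of 5 horses, and its call was lost without horse 14, 17, 18 or 20, with adjusted p up to 0.115. As a percentage of the MTJ level of the same horse, the median fibre-end marker in tendon was 55.7, 113, 16.2, 9.70 and 44.2, against 17.6, 19.1, 16.4, 0.285 and 3.81 for the fibre markers. ADAMTS20 was not called with library totals (adjusted p = 0.0720).

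**Figure D5:**
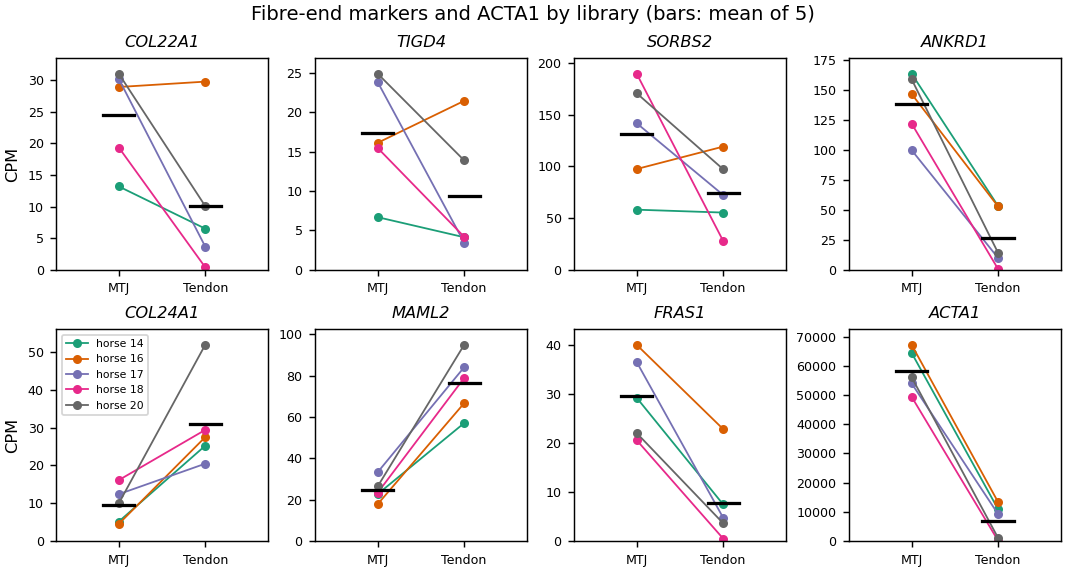
CPM of 7 fibre-end markers and of ACTA1 in each library, with a line joining the sections of a horse and black bars at the means of 5. COL22A1, TIGD4 and SORBS2 overlap between the groups, COL24A1 and MAML2 are higher in tendon, and ACTA1 is higher in all 5 MTJ sections.

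Complexes that tie the fibre to laminin had members in both directions. In the dystrophin-glycoprotein complex 10 of 14 genes were higher and 4 lower (median 1.24), and with library totals 6 and 4. DMD, encoding dystrophin, read 499.7, 404, 428, 419 and 453 CPM in MTJ and 121, 176, 86.3, 28.5 and 72.3 CPM in tendon (2.41 ± 0.36). The lower genes were DTNB (-3.34 ± 0.31), SNTB2 (-1.80 ± 0.14), SGCE (-1.10 ± 0.21) and UTRN (-0.94 ± 0.14), which encodes utrophin, the relative of dystrophin. DTNB was low, at 0.632 ± 0.283 CPM in MTJ and 6.45 ± 2.92 CPM in tendon with all 15 libraries scaled together. For integrins and focal adhesion 8 of 28 genes were higher and 15 lower (median -0.61), and with library totals 2 and 23. The higher count is near the 30.6% over all genes, and was 5 without horse 20. The lower count was 9 without horses 14, 16 and 17. ITGA7, the laminin receptor chain of muscle, read 277, 211, 204, 200.0 and 160.3 CPM in MTJ and 98.0, 106, 72.8, 18.4 and 54.0 CPM in tendon. The groups did not overlap (1.77 ± 0.34), although the call was lost with library totals (adjusted p = 0.0574). ITGB1BP2, the muscle integrin partner melusin, was higher by 2.82 ± 0.30. ITGA10, a collagen receptor chain, was lower, at 44.2, 28.9, 86.7, 93.6 and 49.6 CPM in MTJ and 318, 372, 342, 544 and 487 CPM in tendon (-2.87 ± 0.26), as was ITGA2 (-3.29). ITGB1, the common beta chain, was not called (0.20 ± 0.14, interval -0.13 to 0.52).

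Basement membrane genes were mostly lower in MTJ. Of 19 tested, 12 were lower and 1 higher (median -1.01). Without horses 14, 16 and 17 the count of lower genes was 7, with a median of -0.71. LAMA2, the laminin chain around muscle fibres, was lower, at 242, 251, 363, 336 and 294 CPM in MTJ and 936, 858, 832, 967 and 987 CPM in tendon. No values overlapped (-1.64 ± 0.19, adjusted p = 0.000240). NID2 (-2.49 ± 0.15), encoding nidogen-2, was lower and NID1 (0.93 ± 0.16), its relative, was the gene higher, with -0.052 by library totals. COL4A1, the main chain of type IV collagen, was not called (0.07 ± 0.13, interval -0.23 to 0.38). Of 14 neuromuscular junction genes, 8 were higher and 4 lower (median 2.68). Over all genes 30.6% were higher and 34.6% lower, so the count of lower genes is near that share. The receptor subunits CHRNA1 (3.82) and CHRND (3.76), the kinase MUSK (3.38) and its partner RAPSN (3.53) were higher. CHRNE, the adult receptor subunit, was lower (-0.95 ± 0.21), a call lost with all 15 libraries in the fit (adjusted p = 0.0629) and without horses 14, 16 and 17 (0.0827). With all 15 libraries scaled together, CHRNE averaged 24.9 ± 20.5 CPM in muscle, 3.23 ± 1.20 CPM in MTJ and 5.87 ± 1.55 CPM in tendon sections. Also lower were LRP4 (-1.35), the agrin receptor, and NRG1 (-3.44), a growth factor made by Schwann and nerve cells. NRG1 was low in both, with 0.240 ± 0.107 CPM in MTJ and 2.65 ± 0.988 CPM in tendon in the same scaling.

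Pairs of related genes were set side by side after their values had been seen, as a description without a test. The log2 ratio of the muscle-type to the other member was higher in MTJ than in tendon in 5 of 5 horses for 9 of 9 pairs. Dystrophin over utrophin (DMD/UTRN) differed by 3.35 ± 1.11 (mean ± SD over 5 horses), SGCA/SGCE by 4.45 ± 1.64 and DTNA/DTNB by 5.82 ± 1.50. The difference was 2.02 ± 0.43 for the talins TLN2/TLN1 and 4.05 ± 1.41 for the parvins PARVB/PARVA. COX6A2/COX6A1 and COX7A1/COX7A2, muscle and general forms of cytochrome oxidase subunits, differed by 5.51 ± 2.46 and 2.83 ± 1.84. RYR1/RYR3 differed by 5.82 ± 2.76, and RPL3L/RPL3, the muscle and general forms of a ribosomal protein, by 5.80 ± 2.19. Horse 18 had the widest difference in 8 of these pairs.

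Among signalling genes most of those called were lower in MTJ, where over all genes 34.6% were lower and 30.6% higher. Of 35 TGF-beta and BMP genes, 21 were lower and 3 higher (median -0.82). The target ID1 (-2.92 ± 0.26) and the receptor TGFBR2 (-1.54 ± 0.12) were lower. ACVR2B (1.13) and ACVR1B (0.72), activin receptors, were higher, but the call of ACVR1B was lost without horse 16, 17, 18 or 20 (adjusted p up to 0.145) and its value was -0.25 with library totals. MSTN, the muscle growth inhibitor myostatin, was higher too, at 3.08, 5.80, 11.5, 2.62 and 6.45 CPM in MTJ and 0.405, 2.41, 1.38, 0.114 and 0.329 CPM in tendon (3.01 ± 0.48). Of 31 Wnt and Hedgehog genes, 15 were lower and 3 higher (median -0.94). DKK3, a Dickkopf relative, read 7.02, 4.01, 21.4, 8.86 and 14.7 CPM in MTJ and 139, 205, 129.9, 171 and 243 CPM in tendon, with MTJ horse 17 highest of its group and no overlap (-4.16 ± 0.41). DKK1, a Wnt antagonist (-3.65 ± 0.54), the receptor FZD8 (-3.60 ± 0.31) and GLI3, the Hedgehog effector (-2.13 ± 0.15), were lower. The higher genes were HHIP (2.74 ± 0.84), RSPO3 (2.24 ± 0.84) and DKK2 (1.32 ± 0.37), of which HHIP was not called without horse 14 or 16 (adjusted p of 0.0670 and 0.0668), RSPO3 without any 1 of the 5 horses (adjusted p up to 0.0816), and DKK2 without horse 17 (0.0582). RSPO3 was near the floor, at 1.29 ± 0.781 CPM in MTJ and 0.303 ± 0.289 CPM in tendon with all 15 libraries scaled together. Of 20 YAP/TAZ target genes, 13 were lower and 3 higher (median -1.05). CCN2, a matricellular protein induced by load, read 218, 104, 723, 309.6 and 294 CPM in MTJ and 2498, 3316, 3634, 4784 and 3602 CPM in tendon. The groups were apart (-3.68 ± 0.44), and CCN1 (-3.12) and AMOTL2 (-2.84) were lower too. TEAD1, the DNA-binding partner of YAP, was higher (1.37 ± 0.15), with AMOTL1 (1.85) and ANKRD1.

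Of 23 insulin-like and fibroblast growth factor genes, 14 were lower and 3 higher (median -1.41). IGFBP3 (-3.15 ± 0.42) and IGFBP6 (-2.71 ± 0.24), which bind insulin-like growth factors, and FGFR1 (-2.02 ± 0.13) were lower. IGF1 was not called (0.41 ± 0.35, interval -0.41 to 1.22), but it was called higher at 1.27 (adjusted p = 0.00434) in the 15-library fit without the tendon libraries of horses 14, 16 and 17. FGFR4 (3.05 ± 0.45) and IGF2R (1.42 ± 0.12) were higher. FGFR4 was low, at 2.53 ± 1.98 CPM in MTJ and 0.349 ± 0.365 CPM in tendon with all 15 libraries scaled together. FGF10 was higher at 1.09 ± 0.15, a call lost with library totals (adjusted p = 0.564).

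Transcription factors of limb position went both ways. Of 23 limb-position transcription factors, 12 were lower and 8 higher (median -1.16), and with library totals 15 and 3. Over all genes 34.6% were lower and 30.6% higher, so the count of higher factors is near that share. HOXD10, on chromosome 18 in the deposited table, read 2.14, 1.62, 5.09, 4.16 and 1.99 CPM in MTJ and 14.8, 14.3, 27.3, 29.0 and 28.2 CPM in tendon. Each MTJ section was below each tendon section (-2.96 ± 0.21, adjusted p = 7.62e-05). HOXD9 (-3.05), HOXD11 (-2.87) and TBX5 (-3.11), the forelimb factor, were lower as well. HOXD9 was low, at 0.527 ± 0.306 CPM in MTJ and 4.13 ± 1.25 CPM in tendon with all 15 libraries scaled together. HOXA13, on chromosome 4, read 6.85, 10.2, 7.15, 6.85 and 7.41 CPM in MTJ and 3.15, 4.43, 4.85, 2.98 and 3.95 CPM in tendon. It was higher without overlap (1.00 ± 0.18), as was HOXA7 (0.72 ± 0.14), and HOXA5 was higher with overlap (1.38 ± 0.22). With library totals HOXA7 turned to -0.26 and the calls of HOXA13 (adjusted p = 0.921) and HOXA5 (0.128) were lost. HOXA10 was not called (0.12 ± 0.14, interval -0.20 to 0.45). TBX15 (3.26 ± 0.56), which acts in muscle formation, was higher.

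Immediate early genes, which respond within a short time to stimuli, went both ways. Of 19 tested, 9 were lower and 5 higher (median -0.28), beside 34.6% lower and 30.6% higher over all genes. ATF3 (2.10 ± 0.30), NR4A1 (1.93 ± 0.16) and JUN (1.25 ± 0.15) were higher, EGR1 (-1.68 ± 0.35) was lower, and FOS was not called (0.36 ± 0.22, adjusted p = 0.176). Of 36 ribosomal protein genes, 15 were lower and 2 higher (median -0.36), and with library totals 34 and 2. RPL3 read 327, 303, 412, 436 and 273 CPM in MTJ and 1387, 1390.1, 1556, 1522 and 1495 CPM in tendon and was lower (-2.09 ± 0.20). The 2 higher were its muscle form RPL3L (3.49 ± 0.86) and RPLP2 (1.79 ± 0.18). Ribosomal protein genes have near-identical copies, so reads could be split between them.

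Markers of other cell types were counted as well, and their part in the results was not tested. Of 13 fibro-adipogenic and fibroblast progenitor markers, 12 were lower and 0 higher, and PDGFRA, which defines these cells, read 24.6, 20.7, 24.9, 29.3 and 32.3 CPM in MTJ and 74.4, 36.4, 67.3, 39.3 and 41.4 CPM in tendon (-0.92 ± 0.21). Without horses 14, 16 and 17 PDGFRA was at -0.31 and not called (adjusted p = 0.150), and 7 of the list were lower. This list shares DCN and LUM with the matrix. Of 13 macrophage markers, 9 were lower and 1 higher (ADGRE1, 1.17, not called without horse 14, 16, 17 or 20), with CD163 at -0.71 ± 0.12 and MRC1 at -1.0 ± 0.16. Summed macrophage markers ran from 203 to 375 CPM in MTJ and from 316 to 654 CPM in tendon, and 1 of the markers was lower without horses 14, 16 and 17 and 5 without horse 18. Of 15 endothelial markers, 9 were lower and 1 higher, and the summed level was 621 to 945 CPM in MTJ and 975 to 1948 CPM in tendon. The count of lower endothelial markers was 7 to 10 with 1 horse left out. It was 5 without horses 14, 16 and 17, beside 17.7% lower over all genes in that fit. The water channel AQP1 (-2.10 ± 0.21) was lower and FLT1, a receptor of vascular growth factor, was higher (1.17 ± 0.23), a call lost with library totals.

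Of 10 pericyte and smooth muscle markers, 3 were lower and 2 higher, beside 34.6% lower and 30.6% higher over all genes. The higher markers were RGS5 (0.90 ± 0.20, but -0.079 with library totals) and DES (3.22 ± 0.94), which muscle fibres share. The count of lower markers was 7 without horse 18, and 0 without horses 14, 16 and 17, where the median turned from -0.56 to 0.48. DES lost its call without horse 20 (adjusted p = 0.0595). ACTA2, the smooth muscle actin, was not called (-0.11 ± 0.41, interval -1.07 to 0.86), but it was called lower with library totals (-1.09, adjusted p = 0.0471). Of 11 Schwann cell and nerve markers, 4 were lower, with PMP22 at -1.33 ± 0.13, and 0 higher, a share of lower genes close to the 34.6% over all genes. That count was 7 without horse 18 and 2 without horses 14, 16 and 17. Of 8 adipocyte markers, 4 were higher and 0 lower, among them LPL (3.69 ± 0.64), which muscle also makes, while ADIPOQ, which fat cells alone are known for, was not called (0.79 ± 0.67, adjusted p = 0.331). Satellite cell markers gave 2 higher and 3 lower of 7, lymphocyte markers 0 and 2 of 8, synovial lining markers 2 and 4 of 9, and cell cycle genes 1 and 3 of 7. Of 11 complement and acute-phase genes, 9 were lower and 0 higher, and 5 were lower without horses 14, 16 and 17. No red blood cell marker passed the filter.

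Some abundant genes differed little. Among genes with a mean of at least 100 CPM, 131 had a 95% interval of the log2 fold change inside -0.5 to 0.5. HCFC1, a transcriptional coregulator, read 144, 108, 131, 42.8 and 96.4 CPM in MTJ and 139.5, 99.6, 118, 43.5 and 96.3 CPM in tendon, and its interval was -0.16 to 0.28. The values overlapped in full. QARS1, the glutaminyl-tRNA synthetase (-0.33 to 0.12), and GAPVD1, an endosomal exchange factor (-0.19 to 0.27), had intervals of the same kind. These intervals hold under TMM scaling. With library totals HCFC1, GAPVD1 and QARS1 moved to -0.92, -0.94 and -1.08, and each was called lower. In 561 of the 9821 called genes the direction was not shared by all 5 horses, COL22A1 and TIGD4 among them.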

How the data were processed

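RNA was sequenced on a DNBseq instrument after mRNA enrichment or rRNA depletion and random priming, per the labels' protocols. The authors deposited whole-number read counts per gene and library, without normalization, per the file headers and the values. The submitters' processing notes name EquCab3.0 and DESeq2 1.26.0, and no aligner, counter or strand setting is given in the sources used here. Reads of overlapping genes therefore cannot be told apart. The authors deposited a second table with log2 changes of each MTJ section against a predicted mixture and an adjusted p-value (FDR), from which 7 genes are quoted.

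Group and horse come from the sample titles. Of 30297 genes, filterByExpr kept 15072 of the 10 libraries. Counts were scaled by TMM, with factors of 0.644 to 0.799 in MTJ and 1.26 to 1.54 in tendon, and tested with edgeR 4.0.16 in R 4.3.3 (quasi-likelihood F-test, tissue and horse as terms, Benjamini-Hochberg over all genes, adjusted p under 0.05). The test against 2-fold used glmTreat. SE is the absolute log2 fold change over the root of F, and intervals are 95%. Ratios of gene pairs used 0.5 CPM as pseudocount. Alternatives were library totals, DESeq2 1.42.0 and its size factors, other filters, no block, all 15 libraries and horses left out. The script was tested on simulated data with known changes in a small share of genes, as many up as down. These sections differ in most genes, so that test does not bear on the choice of scaling here. The horse number marks 1 animal. After removing tissue means, the 5 pairs of sections from 1 horse had correlations of 0.230 to 0.325, against -0.236 to 0.119 for sections of different horses. Libraries of a group differed beyond sampling noise (chi-square per gene of at least 31.1). Each p-value rests on 5 pairs.

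The members and gene lists were chosen with earlier results of these data known. Of 822 distinct listed symbols 795 were in the table and 717 were tested. Named genes were the 12 with the largest and the 8 with the smallest-p change in each direction (mean of at least 5 CPM, same direction in 5 horses), the 5 most abundant of each group, up to 5 called members per list, all muscle, tendon and fibre-end markers, and the 8 narrowest intervals. The text gives a subset, and further list members, the uncalled ones included, were chosen after their values were seen. The mitochondrial genome's genes and some collagen genes are not analysed here.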

Additional observations from a re-analysis of the deposited data

Results flagged for a closer look

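For each of 203 named genes, the highest or lowest library of each group of 5 was compared with the spread of its group, and 34 of 406 groups (8.37%) had a library whose gap to the nearest other library took more than 0.71 of the range. Chance flags about 1 in 20 groups, and genes measured in the same library are not independent. In the MTJ section of horse 17, 15 genes stood apart. Of these KERA was low, at 7.91 CPM. The others were high: in CPM, ACAN at 23.2, BGN at 155, CHAD at 34.4, CILP2 at 47.8, COL16A1 at 5.32, COL5A1 at 25.7, EMILIN1 at 30.9, GAS6 at 27.6, IGFBP6 at 56.0, LOX at 317, NID2 at 39.8, PRELP at 749, SOD3 at 11.7 and XBP1 at 58.8. Most of these are tendon matrix genes, and that section also had the highest summed tendon marker level of the MTJ sections, 2998 CPM. The part of that tendon RNA in their values was not tested.

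Elsewhere the flags were scattered. In other MTJ sections they were, in CPM, MMP15 at 5.14 and NEB at 39610.0 for horse 14, HOXA13 at 10.2 and MYH3 at 203 for horse 16, ACTA2 at 761 and TPPP3 at 80.2 for horse 18 and TLN1 at 119 for horse 20. TPPP3 and TLN1 were low there and the rest high. In tendon sections they were NR4A1 at 22.6 for horse 14, BBOX1 at 25.6, METTL21C at 57.2, NID2 at 118, TEAD1 at 152 and TPPP3 at 127 for horse 16, ACTA2 at 463, FGF10 at 7.21, PPL at 136 and SNTB2 at 54.2 for horse 17, TSKU at 828 for horse 18 and COL24A1 at 51.9 for horse 20. NID2 and FGF10 were low there and the rest high.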

How the results depend on the processing

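With library totals in place of TMM factors 1756 genes were higher and 10555 lower in MTJ, 539 and 6302 by more than 2-fold, and 968 genes were called in opposite directions. DESeq2's size factors gave 4907 higher and 4744 lower. Under library totals the sign of 19 named genes turned, with log2 fold changes of ACVR1B -0.25, COL4A1 -0.91, COL8A1 -0.42, COX7A2 -0.046, FOS -0.62, GAPVD1 -0.94, HCFC1 -0.92, HOXA10 -0.85, HOXA7 -0.26, HS6ST1 -0.10, ITGB1 -0.78, KERA -0.53, LOXL2 -0.30, MMP2 -0.96, NID1 -0.052, P4HA2 -0.16, RGS5 -0.079, SEC23A -0.38 and SPCS1 -0.52. Of these 19, COL4A1, COL8A1, FOS, GAPVD1, HCFC1, HOXA10, ITGB1, KERA, MMP2, SEC23A and SPCS1 were called lower. ACTA2, ELN, FBN1, NAV3, PRG4 and QARS1, which kept their sign, gained a call as lower under library totals. Without horses 14, 16 and 17, which leaves 4 libraries, 3604 genes were higher and 2757 lower, and 1684 and 789 by more than 2-fold. The part of the smaller number of libraries in these counts was not tested. DESeq2 called 981 genes lower by more than 2-fold against 1573, and the cause was not tested. Leaving out each horse in turn gave 4139 to 4433 genes higher and 4480 to 4862 lower, and 1231 to 1891 higher and 1174 to 1554 lower by more than 2-fold. With no replicate block the counts were 4305 higher and 4918 lower, and 1517 and 1377 by more than 2-fold; among named genes the block changed calls for ACTC1, ACVR1B, ADAMTS20, ADGRE1, COL22A1, HK2, TIGD4 and TTN. The other filters, the fit to all 15 libraries and the fit without the doubted tendon libraries stayed within 1.5 times of each main count. Among named genes, library totals ended the calls of ACVR2B, ADAMTS20, ADGRE1, COL22A1, DES, DKK2, FGF10, FLT1, HHIP, HOXA13, HOXA5, ITGA7, JUN, MYH7, NEB, RSPO3, TIGD4 and TLN2, and leaving out horses 14, 16 and 17 ended those of ACVR1B, ADAMTS20, ADGRE1, CD163, CHAD, CHRNE, CHRNG, COL1A2, COL22A1, HHIP, LOXL2, MRC1, OGN, PDGFRA, SEC23A, SGCE, SOX9, SPCS1 and TLN1. The median SE of the log2 fold change was 0.26 for genes higher and 0.23 for genes lower by more than 2-fold, and genes under the count filter, such as SCX, were not tested.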
